A study of Ovis aries with 22 samples.

Results

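The 10 genes described here encode secreted proteins of the arterial wall matrix: the thrombospondins THBS1, THBS2, THBS4 and COMP, the wound repair proteins POSTN, TNC, SPARC and WISP1, the adhesive glycoprotein FN1, and CILP. They were chosen by name as a family of matricellular and wound repair genes, and all 10 were found among the 26200 gene symbols of the deposited count tables. RNA was sequenced from the sinus wall, the bulging segment of a great artery just above its valve, in sheep (Ovis aries). In the Ross procedure the pulmonary root is moved into the aortic position, where it becomes the pulmonary autograft. Autograft sinus came from 3 sheep 6 months after that surgery, while 4 other sheep each gave both a native aortic and a native pulmonary sinus. Breed, age and sex are given by none of the labels used here. One aortic library, replicate 1 from animal D3, carries the treatment label "Ross surgery", whereas the design text describes native tissue as coming from sheep without an operation. It was kept in the aortic group, and each result was also computed without this library and without the animal.

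Matricellular proteins are secreted into the matrix but mainly act on cells rather than bearing load: they bind integrins and other receptors, growth factors, proteases and collagen. Most are scarce in a resting adult artery and are made in quantity during development, wound healing and fibrosis. Thrombospondin-1 is known as an activator of latent TGF-beta and as an inhibitor of angiogenesis, and periostin, encoded by POSTN, is a TGF-beta target that promotes collagen assembly.

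The 11 libraries held 17380599 to 20741334 counts. Levels of a gene are given as CPM (counts scaled to a common library total) after TMM scaling, differences as log2 fold changes with a standard error (SE) from 1 edgeR quasi-likelihood fit over all groups, and a gene is called where its Benjamini-Hochberg adjusted p over all 14979 genes tested is under 0.05. A pair of libraries was set down as standing apart from their groups, on all genes tested, members included. Principal component 1 carried 37.9% of the variance of log2 CPM, and on it pulmonary replicate 1 lay at -9.34, between the aortic libraries (-8.46 to 30.6) and the autografts (-72.8 to -37.2), while the other pulmonary libraries lay at 29.5 to 67.6. The pulmonary group was itself spread: replicate 1 lay about as far from replicate 4 (29.5) as replicate 2 (67.6) did. Autograft replicate 1 was set apart on component 2, at 64.1. Results that turn on either library are given with and without it. Summed smooth muscle markers, which define the wall's main cell type, were at 25795 CPM in autograft replicate 1, 53069 and 51464 CPM in the other autografts, and 50916 to 91324 CPM in native libraries. All 8 had a negative log2 fold change against pulmonary sinus and 3 of them fell, where 5.29% of all genes tested were called lower. Against aortic sinus 7 were negative and 1 positive, and 1 fell, where 1.43% of all genes were called lower. MYH11, SMTN and MYOCD were lower in every autograft than in any native library, a description without the share over all genes beside it. ACTA2, TAGLN, CNN1, ACTG2 and DES overlapped with native libraries. The part of smooth muscle in the results below was not tested.

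In autograft against native pulmonary sinus, the tissue of origin of the graft, 3 of the 10 members rose: THBS1, WISP1 and POSTN. No member fell. Over all genes tested, 6.05% were called higher and 5.29% lower in this comparison. The median log2 fold change of the 10 members was 1.53, against 0.00 over all genes tested, as a description: COMP passed the filter on low counts through the autografts, where it is high. Against native aortic sinus, the tissue at the position the graft now holds, THBS1 alone among the members rose, while 0.948% of all genes were called higher and 1.43% lower (2.38% in either direction). The members' median log2 fold change there was 1.35, against 0.00 over all genes. All 10 members had their highest group mean in the autograft, a description without the share over all genes beside it. They include COMP, and THBS2, whose log2 fold change turned sign without autograft replicate 1. The highest single library was autograft replicate 1 for 6 members and autograft replicate 2 for the other 4. These are whole-tissue libraries, so more cells of a type that makes a protein and more RNA per cell cannot be told apart. The labels give 1 library per animal and tissue, so libraries within a group come from different animals. Native aortic and pulmonary libraries come from the same sheep, and the main fit treats them as separate, with no block.

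**Figure D1:**
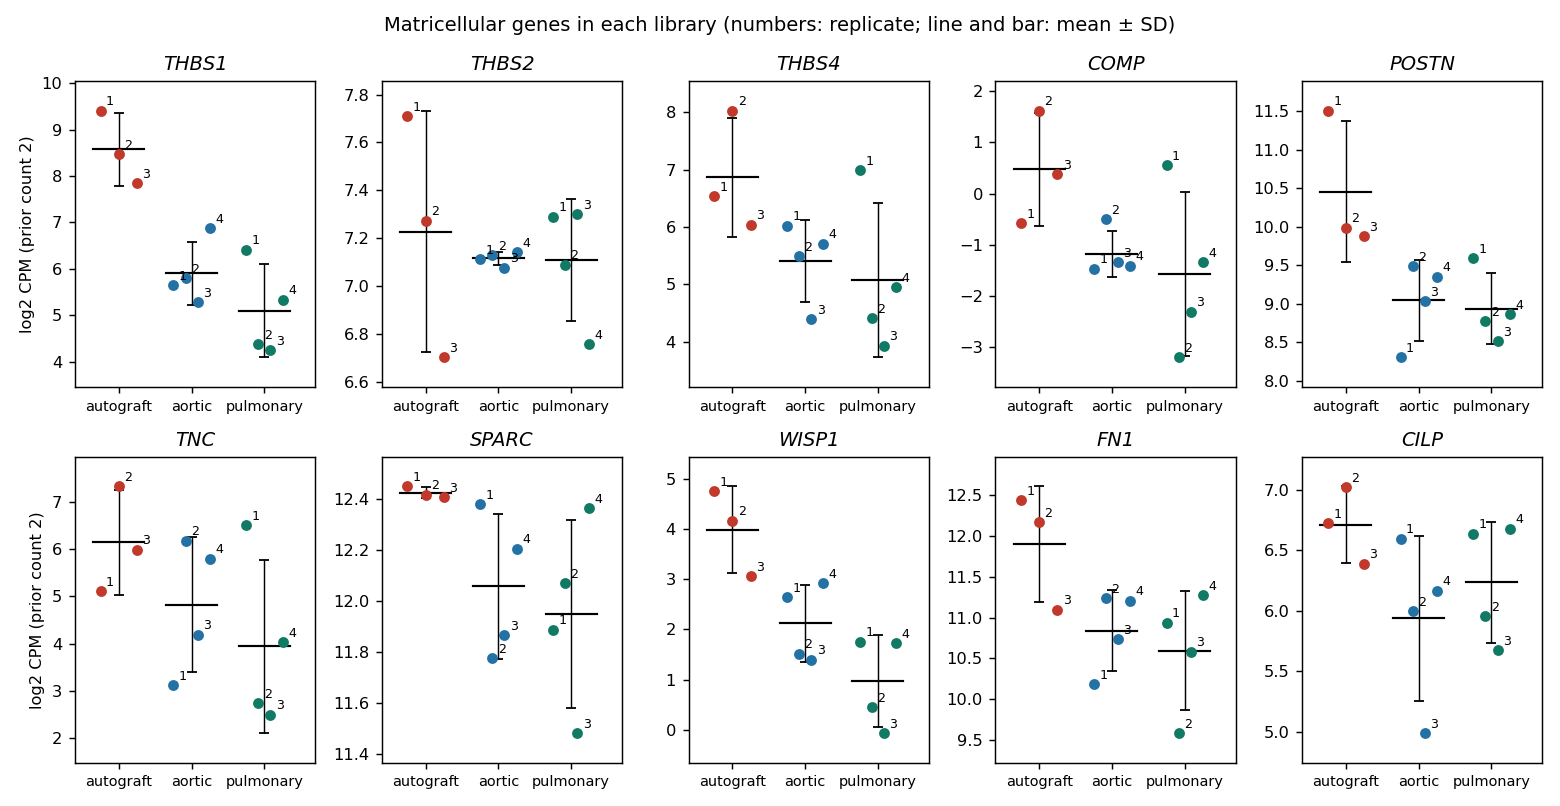
Level of each of the 10 genes in every library, as log2 CPM with a prior count of 2 (vertical axis, its own range for each gene), for autograft, aortic and pulmonary sinus (horizontal axis); points are libraries numbered by replicate, and lines and bars are the mean ± SD over libraries. THBS1, POSTN, WISP1 and SPARC have all 3 autograft libraries above all 8 native libraries, while THBS2 overlaps throughout.

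Among the thrombospondins, THBS1 had the largest log2 fold change in both comparisons with native tissue. Its level was 679, 353 and 230 CPM in the 3 autografts, in replicate order. In aortic sinus it was 50.2, 55.4, 38.97 and 118 CPM, and in pulmonary sinus 85.0, 20.8, 18.9 and 40.4 CPM. The lowest autograft thus lay above the highest native library, aortic replicate 4, and the groups did not overlap. The means were 421 ± 232 CPM (SD, n = 3), 65.6 ± 35.4 CPM (SD, n = 4) and 41.3 ± 30.7 CPM (SD, n = 4). Against pulmonary sinus the fit gave a 10.2-fold higher level, a log2 fold change of 3.35 ± 0.59 (SE) with an edgeR adjusted p of 0.0114. This call was made under all 20 alternative settings. The log2 fold change was 2.82 to 3.96 when single libraries were left out, the highest being without pulmonary replicate 1. Against aortic sinus the level was 6.42-fold higher (log2 2.68 ± 0.57, edgeR adjusted p = 0.0387), a call made under 13 of 20 alternatives. It was made in only 1 of 7 fits that left out a library, the fit without autograft replicate 3 (the adjusted p over the 7 fits was 0.0457 to 0.118), and without animal D3 the adjusted p was 0.0611, in a fit that called 0.304% of all genes higher. The direction was the same under all 20 alternatives, with log2 fold changes of 2.15 to 3.13.

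THBS2, the closest relative of THBS1 and like it an inhibitor of angiogenesis, did not show this pattern. Its autograft libraries were at 209, 155 and 104 CPM, so they included both the highest and the lowest of all 11 libraries. Aortic libraries were within 135 to 141 CPM and pulmonary libraries within 108 to 157 CPM. The log2 fold change was 0.16 ± 0.20 against pulmonary sinus (edgeR adjusted p = 0.629) and 0.17 ± 0.20 against aortic sinus (edgeR adjusted p = 0.654). Without autograft replicate 1 the sign turned, to -0.12 and -0.09. The order of both genes per transcript length can be read only roughly from the authors' FPKM, which are no plain rescaling of the counts. In counts the ratio of THBS1 to THBS2 was 2.21 to 3.25 in autograft, 0.289 to 0.834 in aortic and 0.120 to 0.544 in pulmonary libraries. In all 3 autografts THBS1 had the higher FPKM, at 1.66 to 2.67 times that of THBS2, and in 0 of 8 native libraries, where the ratio was 0.318 to 0.771 in aortic and 0.149 to 0.543 in pulmonary sinus. Within the summed counts of THBS1, THBS2, THBS3, THBS4 and COMP, THBS1 made up 40.8% to 61.1% in autograft libraries. Its share was 13.3% to 30.1% in aortic and 7.25% to 17.6% in pulmonary libraries.

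THBS4, a thrombospondin of tendon, muscle and injured tissue, was at 92.5, 262 and 65.8 CPM in the autografts. It was at 65.04, 44.96, 20.9 and 52.3 CPM in aortic sinus and at 127, 21.2, 15.1 and 30.8 CPM in pulmonary sinus. Every autograft library was above every aortic library, by a narrow margin at the lowest, but pulmonary replicate 1 was the second highest of the 11. The log2 fold change against pulmonary sinus was 1.53 ± 0.71 (edgeR adjusted p = 0.173), 2.63 with an adjusted p of 0.0129 without pulmonary replicate 1, and 0.71 with an adjusted p of 0.564 without autograft replicate 2. Against aortic sinus it was 1.61 ± 0.71 (edgeR adjusted p = 0.208).

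COMP, or thrombospondin-5, a cartilage and tendon matrix protein that also occurs in arteries, was close to the detection limit. Autograft libraries had 10, 51 and 21 counts (0.562, 2.97 and 1.19 CPM). Aortic libraries had 5, 12, 5 and 5 counts, and pulmonary libraries 24, 0, 2 and 5. The 0 in pulmonary replicate 2 allows a level of up to 0.171 CPM, from 3 counts and counting error only. A minimum of 0.56 CPM, which the filter asks of at least 3 libraries, was met in 3 autograft, 1 aortic and 1 pulmonary library, so COMP entered the tests through the autografts, the group where it is high, and its test supports nothing. Against pulmonary sinus its log2 fold change was 1.86 ± 0.97 (edgeR adjusted p = 0.222). Without pulmonary replicate 1, the highest native library, it was 3.56, and without autograft replicate 2 it was 1.02. Autograft replicate 2 was highest for both THBS4 and COMP. Summed cartilage markers (10 of 11 in the tables) were at 86.1, 48.0 and 82.4 CPM in the autografts, 46.4 to 66.7 CPM in aortic and 51.7 to 63.1 CPM in pulmonary sinus. All 5 that were tested had positive log2 fold changes against both native groups and none was called. COL2A1, which was not tested, did not follow them. It was at 0 to 0.116 CPM in autograft, 0.107 to 1.35 CPM in aortic and 0.0565 to 0.285 CPM in pulmonary sinus. COL10A1 was at 0 in 10 and MATN1 at 0 in 9 of the 11 libraries. Of the tendon markers, MKX was at 8.77 to 29.4 CPM in autografts, highest in replicate 2, and at 2.10 to 17.7 CPM in native libraries, and TNMD was at 0 in 9 libraries. The part of either cell type in these levels was not tested.

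POSTN was at 2916, 1017 and 940 CPM in the autografts. Aortic sinus held 316, 719, 523 and 653 CPM and pulmonary sinus 772, 437, 366 and 467 CPM. No native library reached the lowest autograft, and autograft replicate 1 stood far above the other 2. Against pulmonary sinus POSTN was 3.18-fold higher (log2 1.67 ± 0.42, edgeR adjusted p = 0.0318), a call made under 12 of 20 alternatives. Without autograft replicate 1 the log2 fold change was 0.93 with an adjusted p of 0.102, and the call was also lost without pulmonary replicate 2, 3 or 4 (adjusted p = 0.0871, 0.0892 and 0.0658), with the 2 groups fitted alone (0.0692) and in the FPKM settings (log2 1.04, adjusted p = 0.103 to 0.109). In the authors' FPKM aortic replicate 2, at 343, lay above autograft replicates 2 and 3, at 303 and 281. Against aortic sinus the log2 fold change was 1.55 ± 0.42 (edgeR adjusted p = 0.0755), and DESeq2, which called 5.03% of all genes higher there, gave an adjusted p of 0.00388.

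WISP1, listed as CCN4 in RefSeq, encodes a CCN family protein induced by WNT signalling that promotes fibroblast and smooth muscle growth. It was at 26.9, 17.9 and 8.23 CPM in the autografts. The aortic levels were 6.14, 2.75, 2.53 and 7.47 CPM, and the pulmonary levels 3.28, 1.26, 0.843 and 3.20 CPM. Autografts were above all native libraries, although autograft replicate 3 lay close to aortic replicate 4. Against pulmonary sinus WISP1 was 8.26-fold higher (log2 3.05 ± 0.58, edgeR adjusted p = 0.0143), and all 20 alternatives made the call, with the smallest log2 fold change, 1.68, from log2(FPKM + 1). Against aortic sinus the log2 fold change was 1.90 ± 0.55 (edgeR adjusted p = 0.0864), called by DESeq2 alone (adjusted p = 0.0116).

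TNC, or tenascin-C, an anti-adhesive protein of wounds and of the developing wall, varied widely within groups. It was at 34.3, 160 and 63.0 CPM in the autografts, at 8.57, 72.1, 18.1 and 55.4 CPM in aortic sinus, and at 90.3, 6.57, 5.53 and 16.2 CPM in pulmonary sinus. The groups overlapped, since aortic replicates 2 and 4 and pulmonary replicate 1 lay among the autografts. The log2 fold change was 1.53 ± 0.98 against pulmonary sinus (edgeR adjusted p = 0.316) and 1.15 ± 0.98 against aortic sinus (edgeR adjusted p = 0.509). Without pulmonary replicate 1 the former was 3.17, with an adjusted p of 0.0287, and without autograft replicate 2 it was 0.72, with an adjusted p of 0.704.

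SPARC, or osteonectin, a collagen chaperone of the wall, was abundant throughout and nearly constant in the autografts, at 5599, 5476 and 5434 CPM. Native levels were 5337, 3510, 3739 and 4727 CPM in aortic and 3794, 4301, 2863 and 5273 CPM in pulmonary sinus. The autografts lay above every native library, but by a small step over aortic replicate 1. Log2 fold changes were 0.44 ± 0.21 against pulmonary sinus (edgeR adjusted p = 0.186) and 0.35 ± 0.21 against aortic sinus (edgeR adjusted p = 0.356). Neither passed the test.

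FN1, or fibronectin, which carries the provisional matrix of wounds, was at 5521, 4584 and 2187 CPM in the autografts. Aortic libraries had 1163, 2407, 1702 and 2360 CPM and pulmonary libraries 1962, 769, 1533 and 2479 CPM. Autograft replicates 1 and 2 were above all native libraries, whereas replicate 3 lay inside the native range. The log2 fold change was 1.28 ± 0.41 against pulmonary sinus (edgeR adjusted p = 0.0636) and 1.10 ± 0.41 against aortic sinus (edgeR adjusted p = 0.145). DESeq2 called both, with adjusted p of 0.00981 and 0.0469, and so did the fit without autograft replicate 3 for the former (log2 1.58, edgeR adjusted p = 0.0358). In the authors' FPKM, where FN1 has the same top value in 4 libraries, the log2 difference was 0.40 to 0.41 and 0.21. CILP, a cartilage intermediate layer protein that binds TGF-beta, was at 106, 130 and 83.8 CPM in the autografts. It reached 96.5, 63.8, 31.6 and 71.6 CPM in aortic and 99.5, 61.9, 50.9 and 102 CPM in pulmonary sinus, so the groups overlapped. Its log2 fold changes, 0.44 ± 0.34 and 0.69 ± 0.34, did not pass the test (edgeR adjusted p = 0.417 and 0.255).

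**Figure D2:**
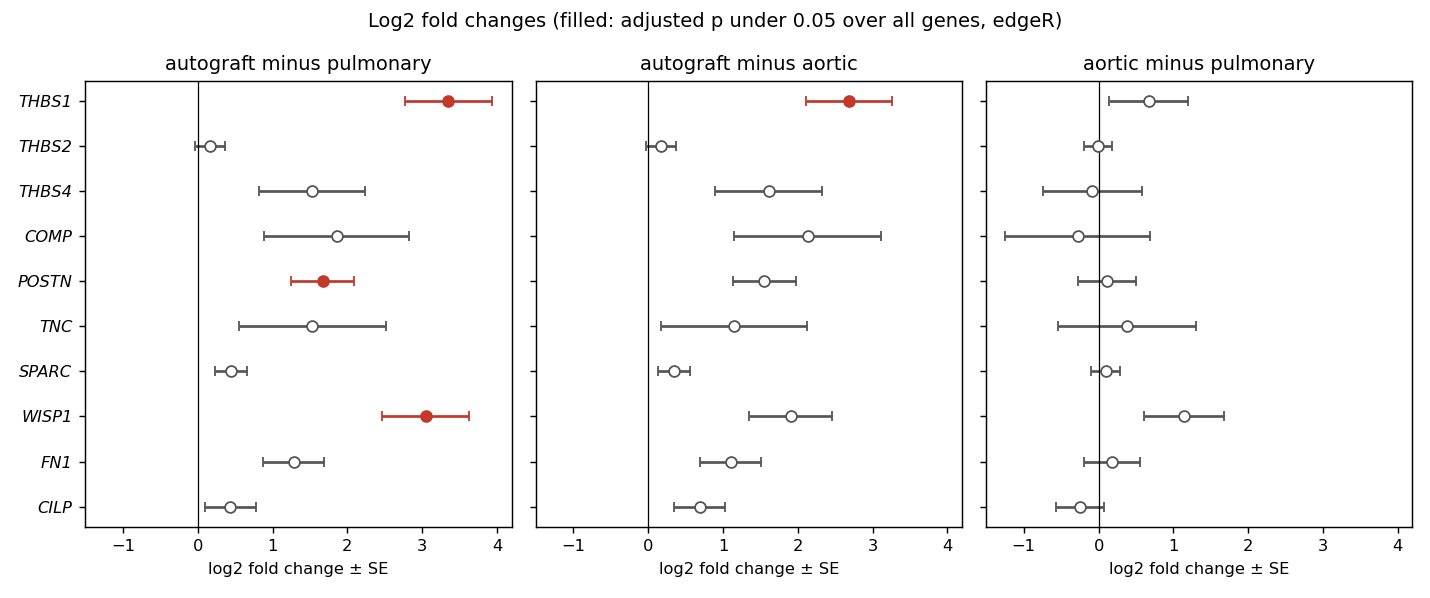
Log2 fold change ± SE (horizontal axis) of each gene (vertical axis) in the 3 comparisons, from the edgeR fit; filled points have an adjusted p under 0.05 over all genes tested. THBS1, POSTN and WISP1 are filled against pulmonary sinus (3.35, 1.67 and 3.05), THBS1 alone against aortic sinus (2.68), and no gene is filled between the native sinuses.

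Autografts did not overlap with the native libraries, and were higher, for 4 of 10 members: THBS1, POSTN, SPARC and WISP1. The same held for 6.89% of all genes tested. With the pulmonary group alone it was the same 4 members, against 10.9% of all genes, and with the aortic group alone THBS4 joined them to make 5, against 9.77% of all genes. The comparisons against the aortic and the pulmonary sinus share the autograft libraries, so their values are given side by side and not as separate evidence.

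The autografts split by gene. Replicate 1 was highest for THBS1, THBS2, POSTN, SPARC, WISP1 and FN1, and replicate 2 for THBS4, COMP, TNC and CILP. Replicate 1 was only the sixth highest of 11 libraries for TNC and the fifth for COMP. In the native groups pulmonary replicate 1 was the highest library for THBS4, COMP, POSTN and TNC, and it was above all aortic libraries for 6 members. Leaving it out, or animal D3, or both libraries that stand apart, raised the count of members called against pulmonary sinus from 3 to 6, with THBS4, TNC and COMP added, of which COMP entered the tests through the autografts and is no support. The share of all genes called higher rose with it, to 9.95% without pulmonary replicate 1, 9.26% without animal D3 and 8.32% without the pair, an alternative chosen after seeing the data.

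**Figure D3:**
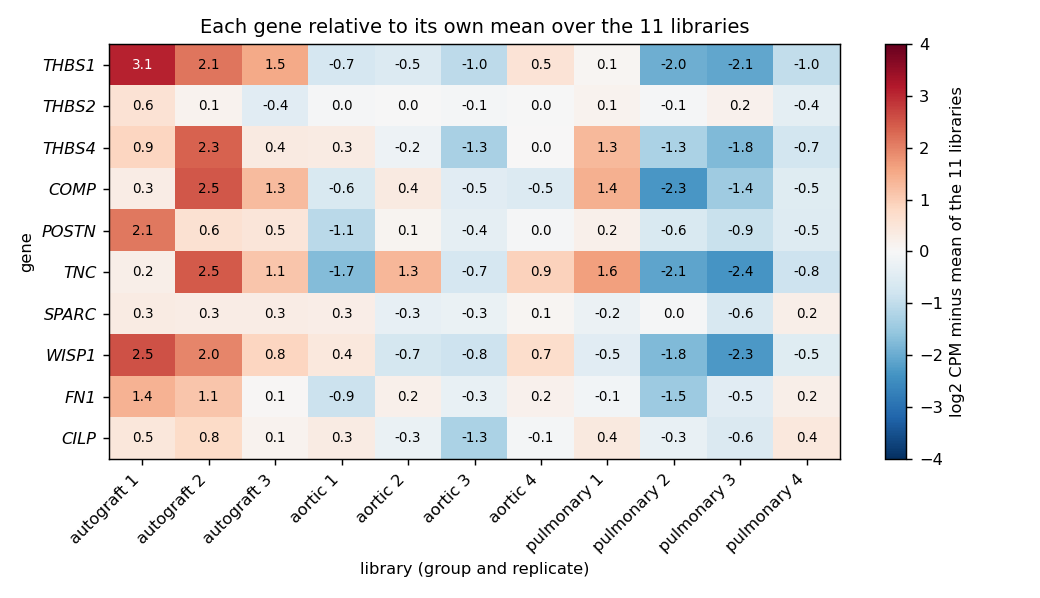
Log2 CPM of each gene (rows) minus its own mean over the 11 libraries, per library (columns, by group and replicate); red is above and blue below that mean. Autograft 1 is the darkest library for THBS1, WISP1 and POSTN, autograft 2 for THBS4, COMP and TNC, and pulmonary 1 is red for the latter trio while pulmonary 2 and 3 are blue.

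Between native aortic and native pulmonary sinus, 0 of 10 members were called by edgeR, DESeq2 or limma-voom. In the edgeR fit over all groups 0 had an unadjusted p under 0.05, in limma-voom likewise 0, and in DESeq2 WISP1 alone did. Over all genes 0% were called by edgeR, and 2.04% had an unadjusted p under 0.05. The largest difference was that of WISP1, higher in aortic sinus by a log2 fold change of 1.14 ± 0.54 (unadjusted p = 0.0563, edgeR adjusted p = 1). With animal as a fixed block in edgeR it was 1.19 ± 0.24, with an unadjusted p of 0.0022 and an adjusted p of 1, and DESeq2 gave an unadjusted p of 0.0299. Without pulmonary replicate 1, THBS1 was at 1.28 and TNC at 2.02 (edgeR adjusted p = 0.508 and 0.532). In the fit with all libraries THBS1 was at 0.67 ± 0.52, TNC at 0.38 ± 0.92, COMP at -0.28 ± 0.97 and CILP at -0.25 ± 0.32. For the other 5 members the log2 difference lay between -0.08 and 0.18. Both groups overlapped for all 10 genes.

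Per transcript length, by the authors' FPKM, SPARC, POSTN and FN1 led the 10 genes and COMP was last. SPARC was listed at 2020 FPKM in every library. The FPKM of SPARC was identical in all 11 libraries, while its raw counts in run 1 ranged from 19187 to 32373, so the FPKM carry no information on differences in SPARC. FN1 reached its highest listed value in 4 libraries. Mean FPKM of POSTN was 450 ± 274 in autograft (SD, n = 3), 236 ± 90.0 in aortic (SD, n = 4) and 200 ± 55.6 in pulmonary sinus (SD, n = 4). Autograft means of the less abundant genes were 58.4 for THBS1, 42.6 for THBS4, 26.8 for THBS2, 20.2 for CILP, 10.52 for TNC, 5.49 for WISP1 and 0.879 for COMP. The spread between autografts was larger than most steps in this order: THBS1 alone ran from 28.6 to 104 FPKM and THBS4 from 20.02 to 75.7. In pulmonary sinus the less abundant genes began instead with THBS2 at 21.7, THBS4 at 15.2, CILP at 14.6 and THBS1 at 6.89. The 10 genes together took 0.884% to 1.55% of the counts of an autograft library, against 0.622% to 0.824% in aortic and 0.516% to 0.842% in pulmonary libraries, and SPARC, FN1 and POSTN made up 91.1% to 96.5% of these.

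The genes whose profile over the 11 libraries was most like that of a called member were found by the root mean square difference of centred log2 CPM. For THBS1 these were ADAM12, a fibroblast metalloprotease (0.41), CCL5, a T cell chemokine (0.42), and MS4A8 (0.42), against a median of 1.61 over all genes tested. ADAM12 was at 10.2 to 30.0 CPM in autografts and at 0.609 to 3.80 CPM in native libraries. For POSTN the nearest were MPP6 (0.24), PTAFR, the receptor of platelet-activating factor (0.28), and LOC101118175 (0.33), with a median of 0.91. For WISP1 they were C7H15orf48 (0.37), CFD, or complement factor D (0.45), and LOC105611978 (0.48), with a median of 1.44. The libraries, and the contrast between the groups, are shared by all these genes, so the likeness is a description.

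Of 21 other matricellular genes listed, 20 were in the tables and 17 were tested. Against pulmonary sinus 2 rose and 2 fell, where 11.3% of all genes were called in either direction. SPP1, which encodes osteopontin, a macrophage and smooth muscle product, was at 50.1, 28.1 and 24.8 CPM in the autografts and at 8.25, 0.400, 1.08 and 5.72 CPM in pulmonary sinus (log2 3.16 ± 0.92, edgeR adjusted p = 0.0497). Aortic replicate 4 was at 38.6 CPM, above 2 of the autografts. SPOCK2, or testican-2, a proteoglycan of the SPARC family, rose by a log2 fold change of 1.57 ± 0.44 (edgeR adjusted p = 0.0433), though autograft replicate 1 overlapped with the pulmonary libraries. The calcium-binding SPARC relatives SMOC1 and SMOC2 fell, by 0.85 ± 0.22 and 0.68 ± 0.18 on the log2 scale (edgeR adjusted p = 0.0355 and 0.0371). SMOC2 was at 226, 209 and 234 CPM in the autografts and at 304 to 534 CPM in the 8 native libraries, and it also fell against aortic sinus, by 0.94 ± 0.18 (edgeR adjusted p = 0.0338), the only call of the list there. Each of these calls was lost in most fits that left out a library: against pulmonary sinus SPP1 was called in 1 of 7 and the other 3 genes in 2 of 7 each, and against aortic sinus SMOC2 in 1 of 7. The count of 4 was 0 when the 2 groups were fitted alone and 2 without both libraries that stand apart, where SMOC2 was not called against aortic sinus. The median log2 fold change of the 17 genes was 0.37 against pulmonary and -0.13 against aortic sinus.

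Among receptors of matricellular proteins, 20 of 21 were in the tables and 19 were tested, and against pulmonary sinus 1 rose and 4 fell, where 6.05% of all genes rose and 5.29% fell. TLR4, a pattern receptor that binds TNC and fibronectin fragments, was at 49.6, 36.7 and 27.0 CPM in the autografts and at 20.5, 5.88, 7.54 and 10.8 CPM in pulmonary sinus (log2 1.76 ± 0.37, edgeR adjusted p = 0.0184). ITGA3, an integrin subunit that binds laminins and THBS1, was at 34.1, 23.9 and 35.3 CPM in the autografts and at 57.4 to 94.9 CPM in all native libraries. It fell by 1.22 ± 0.21 against both pulmonary and aortic sinus (edgeR adjusted p = 0.0109 and 0.0261). ITGA8, a fibronectin and TNC receptor subunit of smooth muscle, fell by 0.62 ± 0.11 and 0.55 ± 0.11 (edgeR adjusted p = 0.0131 and 0.0372). VLDLR, which binds THBS1, fell by 0.99 ± 0.24 and 1.05 ± 0.24 (edgeR adjusted p = 0.0269 and 0.0486). ITGA9, a TNC receptor subunit, fell against pulmonary sinus alone in the test, by 0.94 ± 0.20 (edgeR adjusted p = 0.0184), with -0.77 ± 0.20 against aortic sinus (edgeR adjusted p = 0.0666). CD47, the THBS1 receptor, gave 0.45 ± 0.18 against pulmonary sinus (edgeR adjusted p = 0.113). Against pulmonary sinus ITGA3 and ITGA8 kept their call in all 7 fits that left out a library, TLR4 in 5, ITGA9 in 4 and VLDLR in 3. Against aortic sinus ITGA3 kept it in 4 of 7, and ITGA8 and VLDLR in 1 each.

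All 18 genes of TGF-beta activation and response were tested. Against pulmonary sinus 2 rose and 2 fell, beside 11.3% of all genes called in either direction. The receptor TGFBR1 rose by 0.73 ± 0.18 (edgeR adjusted p = 0.0318) and the corepressor TGIF1 by 1.14 ± 0.31 (edgeR adjusted p = 0.0388), called in 2 and in 1 of the 7 fits that left out a library. SKI, a repressor of SMAD signalling, was at 91.8, 91.1 and 78.5 CPM in the autografts and at 169 to 201 CPM in the native libraries. It fell by 1.08 ± 0.10 against pulmonary and 1.05 ± 0.10 against aortic sinus (edgeR adjusted p = 0.00142 and 0.00368), in all 7 such fits of each. SMAD4, the common mediator of TGF-beta and BMP signals, fell by 0.65 ± 0.13 against pulmonary sinus (edgeR adjusted p = 0.0156), in 6 of the 7 fits. Against aortic sinus SKI alone of the list was called. There SMAD4 gave -0.40 ± 0.13, TGFBR1 0.56 ± 0.18 and TGIF1 0.91 ± 0.30 (edgeR adjusted p = 0.109, 0.116 and 0.120). Against pulmonary sinus the TGF-beta ligand genes gave -0.34 ± 0.13 for TGFB1, 0.67 ± 0.26 for TGFB2 and 0.63 ± 0.26 for TGFB3. None of these ligand genes was called (edgeR adjusted p = 0.0937, 0.111 and 0.133).

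**Figure D4:**
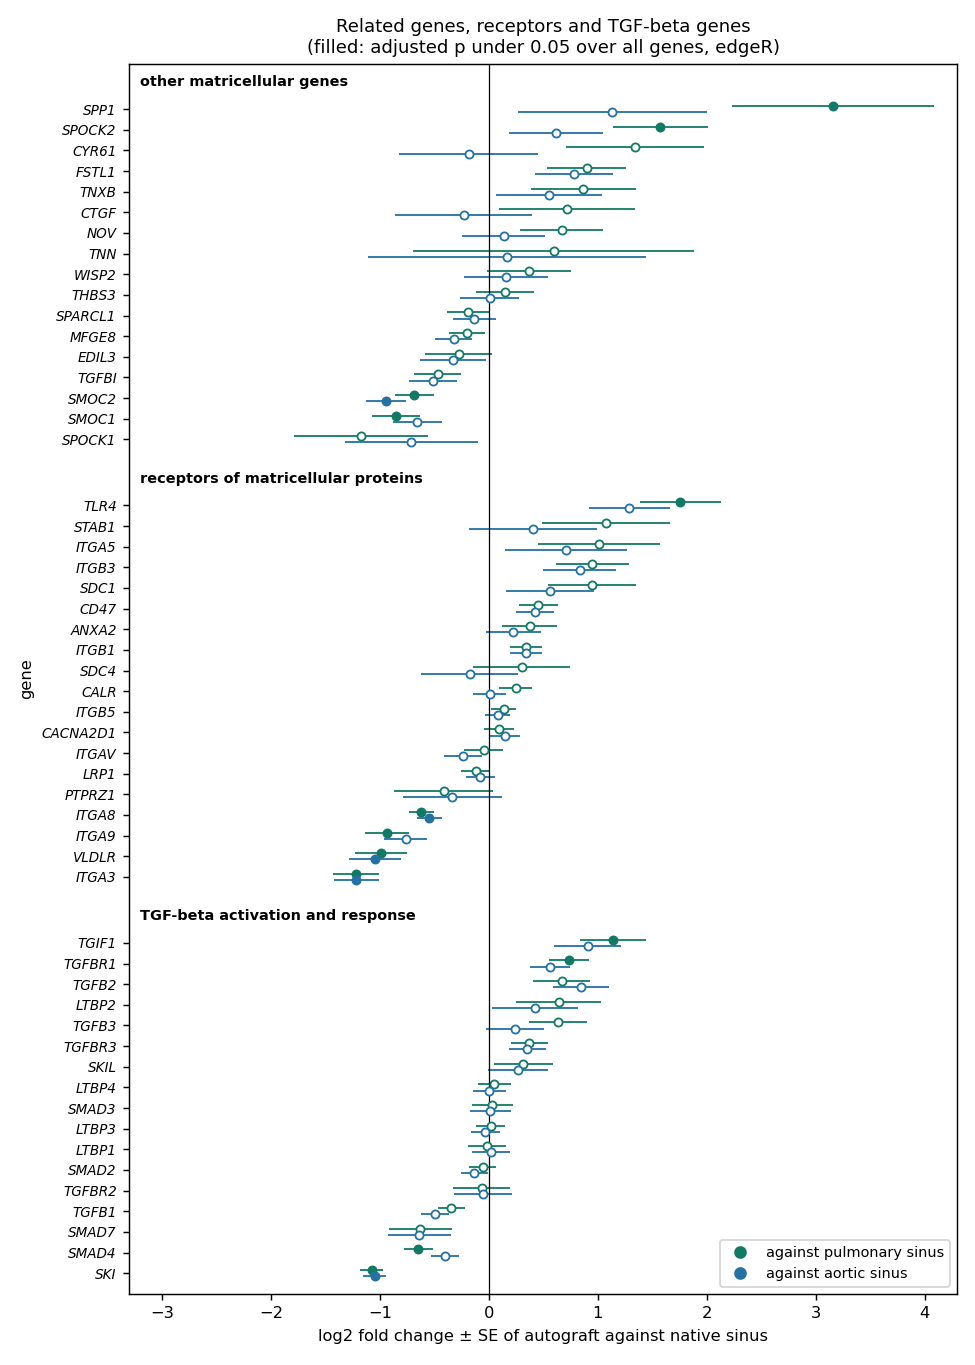
Log2 fold change ± SE (horizontal axis) of autograft against pulmonary sinus (green) and against aortic sinus (blue) for the tested genes (vertical axis) of the related lists, with 1 gene left out; filled points have an edgeR adjusted p under 0.05 over all genes. Filled points lie on both sides of 0 in each list, with SKI, ITGA3, ITGA8, VLDLR and SMOC2 filled and lower in both comparisons.

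Markers of several cell types differed between the same libraries. Summed fibroblast markers (8 of 8 in the tables) were at 12517, 9028 and 11820 CPM in the autografts and at 2236 to 7867 CPM in the native libraries. Summed T and NK cell markers (8 of 8) were at 39.6 to 52.6 CPM in autografts, 5.73 to 10.2 CPM in aortic and 1.92 to 7.01 CPM in pulmonary sinus. Both sums were thus higher in every autograft than in any native library, as THBS1, POSTN, SPARC and WISP1 were. Singly, DCN, LUM and SFRP2 of the fibroblast markers did the same, while PDGFRA, DPT, PI16, MFAP5 and SCARA5 overlapped. Of the 8 fibroblast markers 2 were called higher against each native group, and 1 had a negative log2 fold change against aortic sinus. Of the T and NK cell markers CD2 overlapped, and 7 and 5 of 8 were called higher against pulmonary and aortic sinus. Over all genes these shares were 6.05% and 0.948%. Macrophage markers (9 of 10 in the tables) were at 1280 and 845 CPM in autograft replicates 1 and 2, which were also the highest for FN1, but at 136 CPM in replicate 3, against 56.4 to 418 CPM in native libraries. Endothelial markers (7 of 8 in the tables) were at 91.3, 1552 and 894 CPM in the autografts, and at 368 CPM in pulmonary replicate 1 against 101 to 114 CPM in the other pulmonary libraries. Adipocyte markers (5 of 5) ran alongside, at 28.5, 869 and 402 CPM in the autografts, and at 214 CPM in pulmonary replicate 1 against 8.43 to 53.2 CPM. Autograft replicate 2 and pulmonary replicate 1 were thus the highest of their groups in both lists, as they were for THBS4, COMP and TNC. The match was not complete. Aortic replicate 2 was the highest aortic library in both lists (542 and 432 CPM), for COMP and for TNC, but THBS4 was highest in aortic replicate 1. Autograft replicate 3 was above replicate 1 in both lists, for COMP and for TNC, but below it for THBS4 (65.8 against 92.5 CPM). The part of these cell types in the members' differences was not tested.

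Since platelets store THBS1, their markers were set beside it. The 5 platelet markers in the tables (of 8 listed) summed to 14.7, 25.2 and 23.6 CPM in the autografts and to 10.4 to 15.04 CPM in native libraries. TREML1 was at 0 in 9 of the 11 libraries. ITGA2B made up most of the sum, at 9.88 to 17.9 CPM over all libraries. PF4 was at 1.57 to 9.20 CPM in autografts and at 0 to 1.2 CPM in native libraries, so these did not overlap. The 3 platelet markers that could be tested had a median log2 fold change of 2.91 against pulmonary sinus, where 1 was called higher, and 2.53 against aortic sinus, where 0 were called. Immediate early genes, which respond to tissue handling, summed to 712, 1884 and 1933 CPM in the autografts and to 754 to 2210 CPM in the native libraries. Their median log2 fold change was 1.08 against pulmonary and 0.78 against aortic sinus, with 0 of 12 called and 5 and 3 at an unadjusted edgeR p under 0.05. The part of platelets or of handling in the members' levels was not tested.

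**Figure D5:**
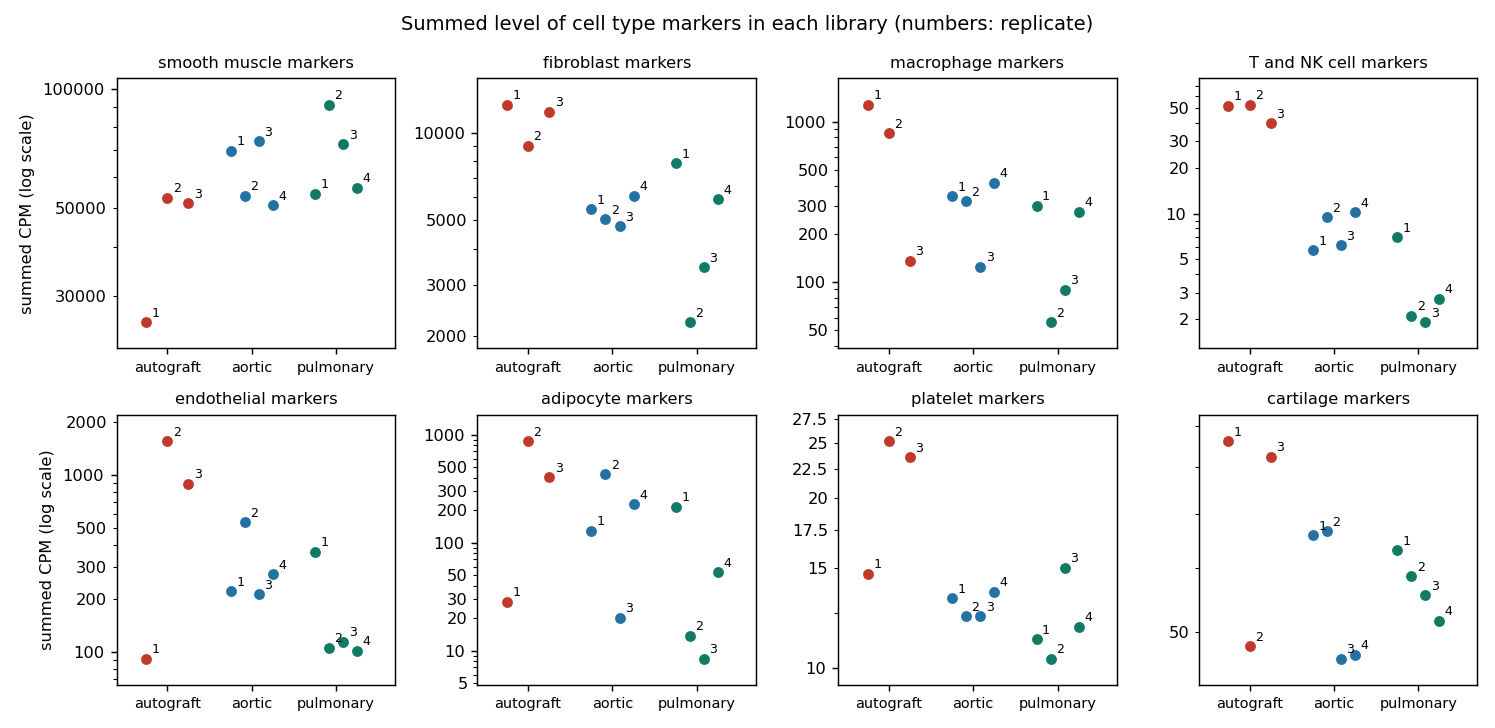
Summed CPM of cell type markers (vertical axis, log scale) in every library of the autograft, aortic and pulmonary groups (horizontal axis), with points numbered by replicate. Fibroblast and T and NK cell sums have all 3 autografts above all native libraries, while endothelial and adipocyte sums are high in autograft 2 and 3 and low in autograft 1.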

How the data were processed

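Per the labels' protocols, TRIzol served for extraction and a TruSeq kit for the libraries. Tools named in the submitters' processing notes are featureCounts 1.5.3, STAR 2.5.2b, Bowtie2 2.3.3.1 and cutadapt. Genome build, annotation and strand setting are not stated in these sources, so overlapping and antisense genes cannot be told apart. The deposited tables hold the authors' raw counts per gene and, separately, the authors' FPKM, 1 table of each per run. The 22 sample entries are 11 libraries in 2 runs, and counts of the runs were added: the chi-square per gene was 1.39 to 1.52 between the runs of a library and 31.9 to 112 between libraries of a group. The row without a gene name, 0.000522% of counts or less, was left out. The deposited FPKM are no plain rescaling of the counts: in each run 4 genes have 1 value in all libraries, and no FPKM is 0, although 4505 of the raw counts behind them in run 1 are. For 14873 genes both runs had FPKM, which were averaged.

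Counts were filtered with filterByExpr (minimum 10 counts), scaled by TMM, and fitted with edgeR 4.0.16 (quasi-likelihood, all 3 groups, no block, R 4.3.3), with Benjamini-Hochberg adjustment over 14979 genes and a threshold of 0.05. The fitting step was also run on simulated counts, drawn independently for each library and without animal pairing, and the outcome is not given here. Alternatives were DESeq2 1.42.0, limma-voom (limma 3.58.1), other scaling and filters, each run, FPKM on a log2 scale with a pseudocount of 1 or 0.1 (limma), single libraries or animal D3 left out, and animal as a block.

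The animal in the labels pairs the native libraries. Between both tissues of an animal, deviations from the group means correlated at -0.18 (D3), -0.13 (D4), 0.43 (D5) and 0.45 (D6). Crossed between animals, D4 aortic with D3 pulmonary tissue gave 0.4 and D3 aortic with D4 pulmonary tissue 0.26. Whether D3 and D4 were exchanged in 1 tissue was not tested, so leaving out D3, and the block, hold as far as the labels do. Gene names were matched to RefSeq (ARS-UI_Ramb_v3.0, 10 of 10 members). Named genes are all members, the called genes of the related lists and up to 2 more of a list with fewer than 2, while CD47, TGFB1, TGFB2 and TGFB3 were added after their values were seen. The results of 2 genes of these lists are not reported here. The members, lists and tests were chosen with earlier results of these data known.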

Additional observations from a re-analysis of the deposited data

Results flagged for a closer look

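Sets of 4 native libraries were checked, 20 in all (10 members in the aortic and 10 in the pulmonary group). In 3 of these sets 1 library lay far from the other 3. Its gap to its nearest neighbour was above Dixon's critical share of the group's range. Chance meets this criterion in about 1 of 20 sets of normally distributed values. It was applied to CPM and not to log2 CPM, and the gaps depend on that scale, so the rate need not hold here. THBS4 was at 127 CPM in pulmonary replicate 1, with a gap of 0.861 of the range. TNC was at 90.3 CPM in the same library, with a gap of 0.874. COMP was at 0.600 CPM in aortic replicate 2, with a gap of 0.904, a difference of 12 counts against 5 in each of the other 3 libraries.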

How the results depend on the processing

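Against pulmonary sinus 9 of 10 members kept their direction in all settings run, and against aortic sinus 9 of 10. The exception in both was THBS2 without both libraries that stand apart (-0.074 and -0.11, log2) and without single libraries (-0.12 to 0.38 and -0.093 to 0.39). The count of members called against pulmonary sinus was 6, not 3, without animal D3 and without both libraries that stand apart. COMP, which is no support, is among the 6, and 9.26% and 8.32% of all genes were called higher there, against 6.05%. Without single libraries the count of members was 2 to 6. Against aortic sinus the count of members was 4, not 1, with DESeq2 (THBS1, POSTN, WISP1 and FN1), which called 5.03% of all genes higher. It was 0 without animal D3, where 0.304% of all genes were called higher, against 0.948% in the main fit. Without single libraries it was 0 to 1. The count of other matricellular genes called against pulmonary sinus was 0, not 4, with the 2 groups alone, 2 in each FPKM setting, 2 without both libraries that stand apart and 0 to 4 without single libraries. Against aortic sinus it was 0, not 1, in the FPKM settings and without both libraries that stand apart, and 0 to 1 without single libraries. The cause of these changes was not tested, and the share of all genes called is not given here for the other settings.

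Between the native sinuses only 3 of 10 members kept their direction, and no setting called any member. THBS2, at -0.01, was 0.0074 with limma-voom, 0.052 without animal D3, 0.034 without both libraries that stand apart, and -0.11 to 0.049 without single libraries. THBS4, at -0.08, was 0.37 with limma-voom, 0.18, 0.22 and 0.18 in the FPKM settings, 0.82 without animal D3, 1.02 without both libraries that stand apart, and -0.38 to 1.02 without single libraries. COMP, at -0.28, was 0.90 with limma-voom, 1.58 without animal D3, 1.43 without both libraries that stand apart, and -0.68 to 1.43 without single libraries. SPARC was at -0.053 without animal D3. Without single libraries the values were -0.049 to 0.37 for POSTN, -0.11 to 2.02 for TNC, -0.050 to 0.25 for SPARC and -0.061 to 0.43 for FN1. With animal as a replicate block, THBS2 was at 0.0073 (limma-voom, random) and 0.00077 (edgeR, fixed), THBS4 at 0.36 and 0.34, and COMP at 0.89 (random). The block changed no call of a member in any comparison. SPARC has the same FPKM in every library, so the FPKM settings give no direction for it and are not counted for it, and COMP was not tested where its mean FPKM had to reach 1, in run 2 alone, or in fits of the native libraries alone. COMP had 0 to 51 counts a library, and groups have 3 or 4 libraries.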
